A study of Rattus norvegicus with 18 samples.

Results

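Neurons join their synapses with adhesion proteins that reach across the synaptic cleft. Neurexins sit mainly on the presynaptic side and act as receptors, while LRRTMs (leucine-rich repeat transmembrane proteins) and neuroligins sit on the postsynaptic side and bind them. The LRRTMs are best known at excitatory synapses. Neuroligin 2 is found mainly at inhibitory synapses, neuroligin 1 mainly at excitatory ones and neuroligin 3 at both. The 9 genes followed here are LRRTM1, Lrrtm2, Lrrtm3 and Lrrtm4, the neurexin genes Nrxn2 and Nrxn3, and the neuroligin genes Nlgn1, Nlgn2 and Nlgn3. They were found by name, ignoring case, among the 31463 entries of each count file, and LRRTM1 is written in capitals there. LRRTM1 was selected on its fall from Control to Glutamate in these same libraries. Its values against Control and Glutamate libraries are therefore a description, with no test. All 9 genes passed the filter on low counts, which left 14398 genes in all.

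The 18 libraries came from primary neuroglial cultures of newborn Wistar rat cortex, 3 libraries for each of 6 groups. Excitotoxicity, the damage of neurons by excess glutamate, was induced on day 10 in vitro, with RNA collected at 4 h. Per the study's methods, glutamate was washed off after the exposure, and the 4 h in culture medium followed that. Control cultures received no treatment. Glutamate cultures received 100 µM glutamate. Memantine cultures received 100 µM memantine, which blocks NMDA receptors for glutamate, within the same model, although the sample label names memantine alone. Glutamate_vesicles, Glutamate_secret and Glutamate_BPC cultures were given glutamate 1 day after a preparation secreted by glial progenitor cells, which had been derived from induced pluripotent stem cells of a single human donor. The first of these names is the group given extracellular vesicles. The labels do not say which of the other names is the 3 to 100 kDa protein fraction and which the total secretome, so these names are used as given. The cultures hold neurons and glia together, and cytosine arabinoside, which stops dividing cells, had been used to limit the glia. The study's methods say in general that experiments were repeated on unrelated cultures, but neither they nor the labels say which culture each of the 3 libraries of a group came from. The p-values therefore measure the spread between these libraries, of which part may be technical.

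Library totals ran from 8409574 to 17206354 counts, and the share of ribosomal RNA ran from 3.04% to 43.0%, highest in Control 1. The sum of 12 neuron marker genes was 2806 to 3681 CPM (counts per 1000000 counts of a library after TMM scaling) in Control and 857 to 1628 CPM in Glutamate. It was 798 to 1469 CPM over the 9 libraries given a preparation. In Memantine it was 5008, 3167 and 917 CPM, so that Memantine 3 lay within the range of Glutamate, with an astrocyte marker sum of 10968 CPM against 4358 and 3713 CPM in the other Memantine libraries. All 12 neuron markers and all 8 astrocyte markers were detected in every library. Of the 7 microglia markers and the 8 markers of the oligodendrocyte lineage, none was at 0 throughout, and 2 and 1 of them were at 0 in some libraries.

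A pair of sequences is shown for genes of unlike pattern, LRRTM1, which was chosen for its change with treatment, and Nlgn2, one of 5 genes whose level went more with the replicate number than with treatment. Each is the 250 bases before the RefSeq start site on the gene's own strand in the assembly GRCr8, which is a later build than the rn6 that the labels name. Capitals mark matches to the GC box GGGCGG on either strand. LRRTM1 lies at chr4:111259609-111259858 on the plus strand and Nlgn2 at chr10:55056579-55056828 on the minus strand.
LRRTM1: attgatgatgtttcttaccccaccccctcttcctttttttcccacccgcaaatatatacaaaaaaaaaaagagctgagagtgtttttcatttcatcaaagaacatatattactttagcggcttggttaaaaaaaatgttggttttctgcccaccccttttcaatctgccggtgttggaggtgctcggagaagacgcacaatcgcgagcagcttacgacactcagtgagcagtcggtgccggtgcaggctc
Nlgn2: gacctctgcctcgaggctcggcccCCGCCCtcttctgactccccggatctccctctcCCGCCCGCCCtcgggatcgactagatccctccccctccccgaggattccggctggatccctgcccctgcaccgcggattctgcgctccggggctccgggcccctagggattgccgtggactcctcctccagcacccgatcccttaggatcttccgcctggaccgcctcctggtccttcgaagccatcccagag

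The LRRTM1 window was 44.8% G or C and the Nlgn2 window 69.2%, against a median of 51.2% over 33469 RefSeq windows of the same length. A GC box was present in 30.5% of all windows. The Nlgn2 window held 3 matches, of which the second and the third overlap, and the LRRTM1 window held none. The cyclic AMP response element TGACGTCA, present in 1.59% of windows, and the AP-1 motif TGANTCA, present in 6.34%, were also searched on both strands. Neither was found in the windows of LRRTM1 and Nlgn2. Windows were at hand for 7 of the 9 genes, all but Nrxn2 and Nrxn3. Among these 7, TGACGTCA was found in 1 window, that of Lrrtm2, and TGANTCA in 1 window, that of Lrrtm4. A GC box was found in 1 window, that of Nlgn2. The other genes that went more with the replicate number, Lrrtm2, Lrrtm3, Lrrtm4 and Nlgn3, had windows with 42.4%, 44.8%, 47.6% and 60% G or C. The unlike windows of LRRTM1 and Nlgn2 are thus not a trait of the 2 patterns. No overlap between matches to different motifs occurred in the windows shown.

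LRRTM1 encodes a postsynaptic protein that binds neurexins. Its level was 25.1, 30.0 and 33.9 CPM in Control 1, 2 and 3 and 5.17, 6.79 and 6.52 CPM in Glutamate 1, 2 and 3. The groups did not overlap, and every Glutamate library was below every Control library. The fold change of Glutamate against Control was -2.27 on the log2 scale, with a standard error (SE) of 0.40. In the order of genes by p it stood in place 2 of 14398, which is the fall that the gene was chosen for. Group ranges did not overlap for 12.2% of all genes in this comparison, and LRRTM1 was the only one of the 9 genes among them.

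Under memantine LRRTM1 reached 19.9 and 26.7 CPM in libraries 1 and 2 and 8.55 CPM in library 3. Memantine 1 and 2 lay at or near the Control range, and Memantine 3 lay close to the Glutamate libraries. Even so, all 3 Memantine libraries were above all 3 Glutamate libraries, a separation that 2.86% of all genes showed. The log2 fold change was 1.57 (SE 0.39) against Glutamate and -0.69 (SE 0.38) against Control. Without Memantine 3, the library with the low neuron marker sum, the fold change against Glutamate was 1.91 on the log2 scale.

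LRRTM1 was low with the preparations. Glutamate_vesicles libraries had 6.08, 9.63 and 7.48 CPM, Glutamate_secret libraries 8.82, 8.67 and 6.15 CPM and Glutamate_BPC libraries 8.78, 8.36 and 5.97 CPM. All 9 of these libraries were below the lowest Control library, and each group overlapped with Glutamate. The log2 fold changes were 0.33, 0.36 and 0.32 against Glutamate (SE 0.39 each), and -1.94, -1.91 and -1.95 against Control (SE 0.40 each). Treated and Control ranges did not overlap for 19.5% of all genes with Glutamate_vesicles, 15.9% with Glutamate_secret and 24.9% with Glutamate_BPC.

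**Figure D1:**
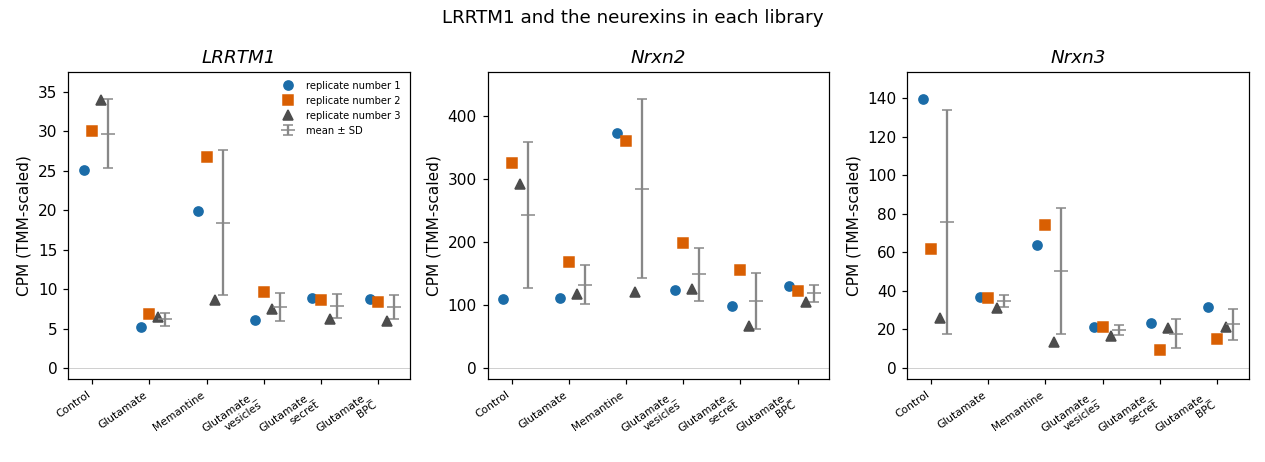
CPM of LRRTM1, Nrxn2 and Nrxn3 in each of the 18 libraries (vertical axis, linear, a scale of its own for each gene) by treatment group, with the mean and SD of 3 libraries in grey. LRRTM1 lies at 25.1 to 33.9 CPM in Control and at 5.17 to 9.63 CPM in the 12 libraries given glutamate without memantine, while Memantine 3 stands apart from the other Memantine libraries in all 3 genes.

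Only the comparisons of the preparations with Memantine use no library on which LRRTM1 was chosen. The log2 fold changes there were -1.25 for Glutamate_vesicles, -1.22 for Glutamate_secret and -1.25 for Glutamate_BPC (SE 0.39 each). The adjusted p-values of edgeR's quasi-likelihood test were 0.440, 0.307 and 0.497, so that none of these differences passed, and the unadjusted p-values of the same edgeR fit were 0.00555, 0.00666 and 0.00544. The ranges overlapped in each case, and the overlap lay at Memantine 3. Libraries of the same number were taken as pairs here, because they deviated together from their group means. LRRTM1 was below Memantine in 9 of 9 pairs, as were 3.08% of all genes. All 3 preparations were paired with the same 3 Memantine libraries, so the pairs are not independent. Without Memantine 3 the log2 fold changes of LRRTM1 were -1.57, -1.55 and -1.56. The adjusted p-values in edgeR were then 0.0261, 0.0199 and 0.0262, where 2.44%, 4.59% and 2.72% of all genes were called. Over the 14 alternatives of each comparison the adjusted p of edgeR or DESeq2 for LRRTM1 ran from 0.0188 to 1 for Glutamate_vesicles, from 0.0158 to 1.00 for Glutamate_secret and from 0.0173 to 1 for Glutamate_BPC.

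The level of LRRTM1 moved with the neuron markers. Over 18 libraries its log2 CPM and the log2 of the neuron marker sum had a Pearson correlation of 0.85, given as a description, since all libraries share the same treatments. Per 1000 CPM of neuron markers, LRRTM1 was 7.17, 8.15 and 12.1 CPM in Control and 3.17, 7.38 and 7.60 CPM in Glutamate. The means were 9.13 ± 2.61 and 6.05 ± 2.49 (SD, n = 3), and these ranges overlapped. The mean was 7.24 under memantine and, for the groups Glutamate_vesicles, Glutamate_secret and Glutamate_BPC in this order, 7.59, 7.69 and 6.91. In bulk RNA, fewer cells of a type and less RNA per cell cannot be told apart.

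**Figure D2:**
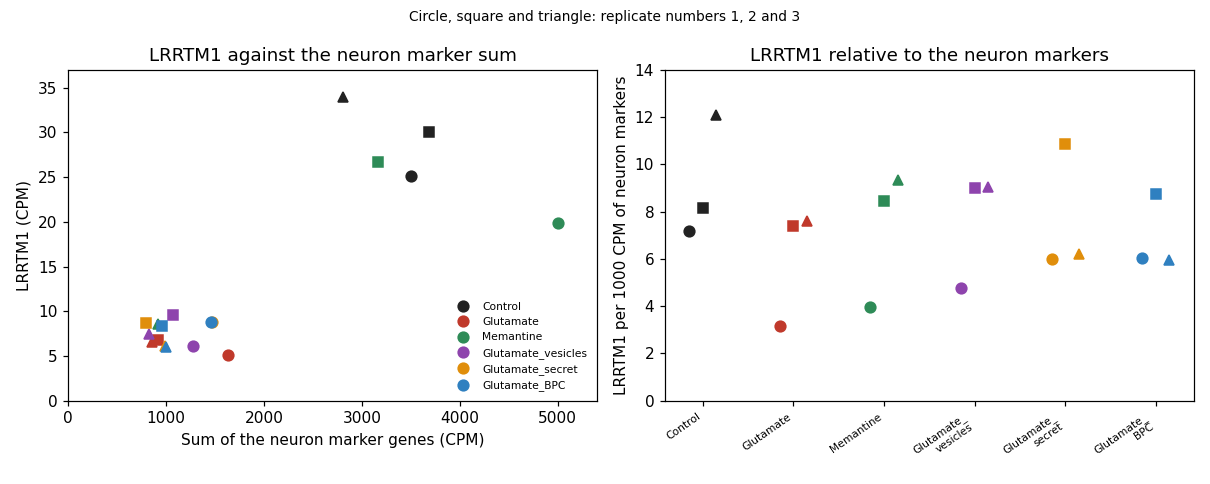
Left, LRRTM1 (CPM) against the sum of 12 neuron marker genes (CPM) in 18 libraries, with both axes linear and starting at 0. Right, LRRTM1 per 1000 CPM of the neuron markers by group. On the left Control and Memantine 1 and 2 lie apart from all other libraries, and on the right the range of 7.17 to 12.1 in Control overlaps with the 3.17 to 7.60 in Glutamate.

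LRRTM1 lies inside Ctnna2 in the RefSeq gene table, as Lrrtm2 lies inside Ctnna1 and Lrrtm3 inside Ctnna3. These hosts encode alpha-catenins, which link cadherins to actin. Strand was not stated for the counting, so counts of such overlapping genes could be shared. Ctnna2 had means of 28.8 ± 14.2 CPM under glutamate and 53.5 ± 25.6 CPM in Control (SD, n = 3), and its log2 fold change was -0.90 (SE 0.58, adjusted p = 0.862, edgeR). Ctnna1 had means of 82.7 ± 39.9 and 51.6 ± 37.9 CPM, and its log2 fold change was 0.68 (SE 0.73, adjusted p = 1.00, edgeR), and Ctnna3 did not pass the filter. For Memantine against Glutamate the log2 fold changes were 1.10 (SE 0.59) for Ctnna2 and -0.30 (SE 0.72) for Ctnna1. For Glutamate_vesicles against Control they were -0.68 (SE 0.58) and 1.42 (SE 0.74).

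The genes whose log2 CPM over 18 libraries was most like that of LRRTM1 were Sybu (Pearson r = 0.97), which encodes syntabulin, a carrier of presynaptic cargo along axons, Fam81a (r = 0.95), Atp1b1 (r = 0.95), a subunit of the sodium and potassium pump, the protocadherin gene Pcdh8 (r = 0.95) and Tmem150c (r = 0.95). The search covered 11879 other genes. Among the 9 genes, LRRTM1 was most like Nrxn2 (r = 0.76) and Nrxn3 (r = 0.61).

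Nrxn2 and Nrxn3 encode neurexins, the presynaptic partners of LRRTMs and neuroligins. Nrxn2 was 110, 325 and 292 CPM in Control and 112, 168 and 118 CPM in Glutamate. Control 1 lay with the Glutamate libraries and the other Control libraries above them, and the log2 fold change was -0.87 (SE 0.48, adjusted p = 0.748, edgeR). In Memantine it was 373, 360 and 120 CPM, with library 3 again low. The log2 fold change against Glutamate was 1.10 (SE 0.48, unadjusted p = 0.0364, adjusted p = 0.889, edgeR).

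Nrxn2 was 123, 198 and 125 CPM with Glutamate_vesicles, 97.5, 155 and 66.6 CPM with Glutamate_secret and 130, 122 and 104 CPM with Glutamate_BPC. These overlapped with Glutamate, and the log2 fold changes against it were 0.17, -0.31 and -0.16 (SE 0.48 each). Against Memantine they were -0.94 (SE 0.48), -1.42 (SE 0.49) and -1.26 (SE 0.48), with adjusted p-values of 0.759, 0.354 and 0.528 in edgeR. Without Memantine 3 the difference of Glutamate_secret from Memantine was -1.77 on the log2 scale with an adjusted p of 0.0410 in edgeR. Over all 14 alternatives of that comparison the adjusted p of edgeR or DESeq2 ran from 0.0153 to 1.00.

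Nrxn3 was 140, 61.8 and 25.7 CPM in Control, a spread of which Control 1 was the upper end. In Glutamate it was 37.1, 36.4 and 31.3 CPM, close together and within the Control range. The log2 fold change was -1.11 (SE 0.60, adjusted p = 0.738, edgeR), and without Control 1 it was -0.32. In Memantine Nrxn3 was 64.0, 74.2 and 13.3 CPM, with library 3 below every Glutamate library.

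With the preparations Nrxn3 was 21.0, 21.1 and 16.6 CPM with Glutamate_vesicles, 23.5, 9.51 and 20.6 CPM with Glutamate_secret and 31.4, 15.1 and 21.4 CPM with Glutamate_BPC. The Glutamate_vesicles and Glutamate_secret libraries were all below the lowest Glutamate library, and 1 Glutamate_BPC library reached into the Glutamate range. The log2 fold changes against Glutamate were -0.83 (SE 0.60), -0.97 (SE 0.60) and -0.63 (SE 0.60). The adjusted p of edgeR rounded to 1.00 in each, and the unadjusted p-values of edgeR were 0.184, 0.128 and 0.312. Group ranges did not overlap for 6.27% of all genes in Glutamate_vesicles against Glutamate, where Nrxn3 and Nlgn1 were among them, and for 3.41% in Glutamate_secret, where Nrxn3 was the only one of the 9.

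All Glutamate_vesicles and Glutamate_secret libraries were also below the lowest Control library. Ranges did not overlap with Control for 19.5% and 15.9% of all genes in these groups. Against Control the log2 fold changes of Nrxn3 were -1.95 (SE 0.62, unadjusted p = 0.00634), -2.08 (SE 0.62, unadjusted p = 0.00422) and -1.74 (SE 0.61, unadjusted p = 0.0123). The adjusted p-values of edgeR were 0.230, 0.195 and 0.318. DESeq2 called the difference of Glutamate_secret, with an adjusted p of 0.0422, and over all 14 alternatives of that comparison the adjusted p of edgeR or DESeq2 ran from 0.0422 to 0.506. Without Control 1 these differences were -1.16, -1.30 and -0.95, each smaller than with this library. The closest match to Nrxn3 over 18 libraries was Srcin1 (r = 0.94), and the closest to Nrxn2 was Epb41l1 (r = 0.98), a gene of the membrane skeleton. Sh3rf3 (r = 0.98) stood second to Epb41l1 for Nrxn2.

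The remaining LRRTM genes were called in none of the comparisons. Lrrtm2, another postsynaptic binding partner of neurexins, was 6.57, 8.10 and 9.16 CPM in Control, 1.94, 11.3 and 3.21 CPM in Glutamate and 1.61, 22.2 and 1.08 CPM in Memantine. Glutamate_vesicles libraries had 2.59, 10.6 and 6.27 CPM, Glutamate_secret libraries 2.36, 11.1 and 1.09 CPM and Glutamate_BPC libraries 4.17, 6.17 and 2.06 CPM. Library 2 was the highest in every group but Control. Glutamate differed from Control by -0.53 on the log2 scale (SE 1.03, adjusted p = 1.00, edgeR). Lrrtm2 was below every Control library in Glutamate_BPC, with a log2 difference of -0.94 (SE 1.04, adjusted p = 0.790, edgeR). Beside LRRTM1 it was the only one of the 9 without overlap there, where 24.9% of all genes did not overlap.

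Lrrtm3 was 6.85, 12 and 8.46 CPM in Control, 4.52, 14.3 and 6.42 CPM in Glutamate and 4.83, 17.8 and 6.04 CPM in Memantine. Glutamate_vesicles libraries had 5.68, 12.9 and 7.73 CPM, Glutamate_secret libraries 3.78, 13.4 and 3.26 CPM and Glutamate_BPC libraries 7.52, 9.51 and 6.18 CPM. Library 2 was the highest in all 6 groups. The log2 fold changes over the 12 comparisons lay between -0.47 and 0.18, each smaller than its SE.

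Lrrtm4, which can also bind heparan sulphate proteoglycans, had few counts. It was 0.571, 5.50 and 3.99 CPM in Control, 0.387, 2.29 and 0.681 CPM in Glutamate and 0.215, 8.17 and 0.431 CPM in Memantine. With the preparations it was 0, 2.13 and 1.22 CPM, then 0.945, 2.39 and 0.724 CPM, then 0.362, 1.27 and 0 CPM. Library 2 was again the highest in all 6 groups, and the number of counts in library 2 ran from 22 to 147 against 0 to 6 in library 1. A count of 0 allows up to 0.299 CPM in Glutamate_vesicles 1 and 0.325 CPM in Glutamate_BPC 3, on a floor of 3 counts per library and for counting error only. The log2 fold change of Glutamate against Control was -1.58 (SE 1.40, adjusted p = 0.984, edgeR), a difference not detectable at this depth and spread.

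Nlgn2 encodes the neuroligin of inhibitory synapses. It was 5.71, 72.8 and 75.4 CPM in Control, 2.84, 72.2 and 21.9 CPM in Glutamate and 4.83, 136 and 13.4 CPM in Memantine. Glutamate_vesicles libraries had 5.68, 74.1 and 30.1 CPM, Glutamate_secret libraries 1.58, 60.7 and 3.98 CPM and Glutamate_BPC libraries 10.8, 25.3 and 10.4 CPM. Library 2 exceeded library 1 in every group, by a median of 19.2-fold and by 38.5-fold at most. Set against that spread, the log2 fold change of Glutamate against Control was -0.67 (SE 1.41, adjusted p = 1.00, edgeR).

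Nlgn3 was 7.14, 32.8 and 32.6 CPM in Control, 5.17, 58.2 and 13.1 CPM in Glutamate and 3.33, 84.1 and 7.83 CPM in Memantine. Glutamate_vesicles libraries had 7.88, 51.4 and 13.3 CPM, Glutamate_secret libraries 5.83, 41.7 and 6.52 CPM and Glutamate_BPC libraries 8.51, 13.2 and 7.92 CPM. Library 2 was the highest in all 6 groups, by 1.55-fold to 25.3-fold over library 1. Glutamate differed from Control by 0.07 on the log2 scale (SE 1.13, adjusted p = 1.00, edgeR).

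Nlgn1 had neither order. It was 77.7, 8.83 and 6.03 CPM in Control, where library 1 was far above the others. It was 23.4, 15.7 and 10.7 CPM in Glutamate, 16.9, 28.4 and 4.96 CPM in Memantine and 22.2, 7.52 and 30.6 CPM in Glutamate_secret. In Glutamate_vesicles it was 9.47, 10.4 and 3.89 CPM and in Glutamate_BPC 10.7, 3.46 and 7.59 CPM. Every library of both groups was below every Glutamate library. The margin was narrow, with 10.43 CPM in Glutamate_vesicles 2 and 10.69 CPM in Glutamate_BPC 1 against 10.70 CPM in Glutamate 3. In Glutamate_BPC against Glutamate 7.13% of all genes had ranges that did not overlap, and Nlgn1 was the only one of the 9. The log2 fold changes against Glutamate were -1.07 (SE 0.87, adjusted p = 1.00, edgeR) for Glutamate_vesicles and -1.20 (SE 0.87, adjusted p = 1, edgeR) for Glutamate_BPC.

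Against Control, Nlgn1 had unadjusted p-values of 0.0443 in Glutamate_vesicles and 0.0343 in Glutamate_BPC in edgeR, with log2 fold changes of -1.94 (SE 0.89) and -2.07 (SE 0.89) and adjusted p-values of 0.412 and 0.396. Both rested on Control 1, since without it the log2 fold changes were 0.09 and -0.04. Without Control 1 the log2 fold change of Glutamate against Control also turned, from -0.88 (SE 0.86, adjusted p = 0.988, edgeR) to 1.16.

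**Figure D3:**
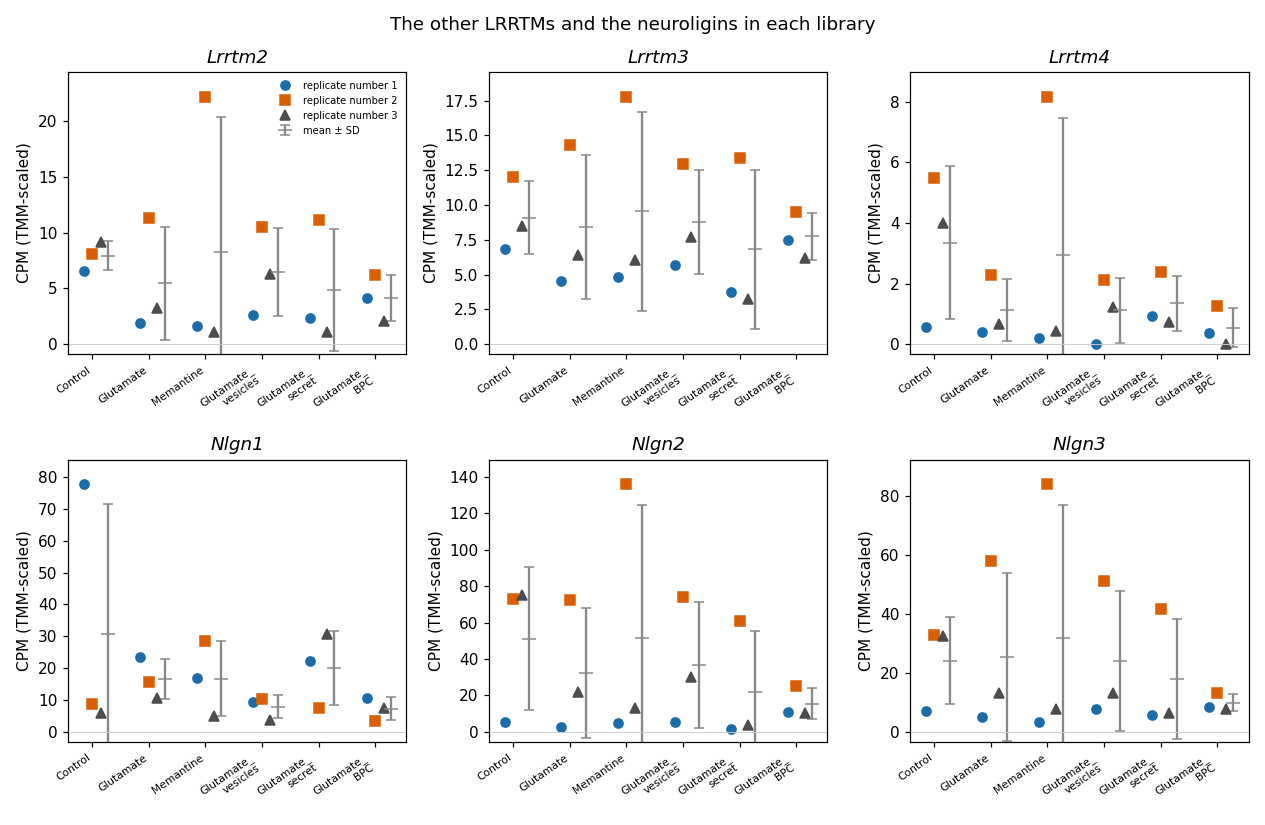
CPM of the other LRRTM genes and the neuroligins in each of the 18 libraries (vertical axis, linear, a scale of its own for each gene) by treatment group, with the mean and SD of 3 libraries in grey, where SD bars are cut off just below 0. The squares, replicate number 2, are above the circles, replicate number 1, in all 6 groups for Lrrtm2, Lrrtm3, Lrrtm4, Nlgn2 and Nlgn3, while in Nlgn1 the 77.7 CPM of Control 1 is the highest value.

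The 9 genes thus had unlike patterns over the libraries. Library 2 was above library 1 in all 6 groups for 5 of them (Lrrtm2, Lrrtm3, Lrrtm4, Nlgn2 and Nlgn3), an order that 29.6% of all genes showed. It was the highest of the 3 in all 6 groups for Lrrtm3, Lrrtm4 and Nlgn3, which 9.05% of all genes showed. For LRRTM1 and Nrxn2, library 2 was above library 1 in 4 of 6 groups, and for Nrxn3 and Nlgn1 in 2. This order was looked for after the values had been seen, and the labels do not say what a replicate number stands for. The study names the day as a batch term only in its clustering of intact and vesicle-treated cultures without glutamate. For its clustering with the glutamate groups it mentions batch correction without naming the batch. Days are not tied to these numbers, so a day effect could not be told apart from the number.

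Treatment group took 84.0% of the sum of squares of log2 CPM for LRRTM1 over 18 libraries, which in part restates how it was chosen, and replicate number took 4.96%. In Nrxn2 and Nrxn3 treatment group took 47.4% and 47.7%. In Lrrtm3, Nlgn2 and Nlgn3 replicate number took 71.7%, 71.7% and 72.2%, and treatment group 10.6%, 12.4% and 6.90%. Lrrtm2 and Lrrtm4 were in between, with 53.9% and 51.9% for replicate number, and in Nlgn1 the shares were 25.4% for group and 25.1% for number. The medians over all 14398 genes were 22.4% for group and 42.2% for number. A larger share for replicate number than that of Nlgn3 was found in 4.17% of genes, and than that of Lrrtm3 in 4.79%.

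**Figure D4:**
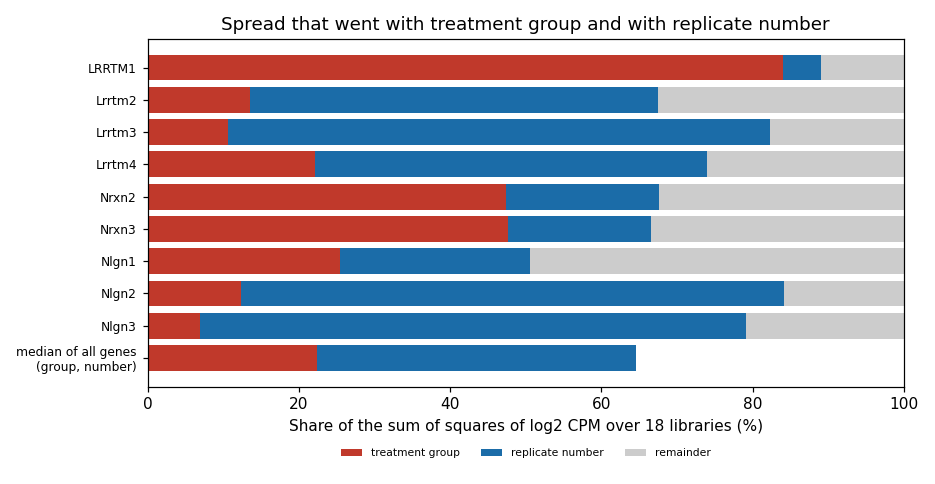
Share (%) of the sum of squares of log2 CPM over 18 libraries that went with treatment group, with replicate number and with neither, for each of the 9 genes, and below them the medians of the first 2 shares over 14398 genes. Treatment group leads in LRRTM1 (84.0%), and replicate number leads in Lrrtm3, Nlgn2 and Nlgn3 (71.7%, 71.7% and 72.2%). The shares are not adjusted for the number of levels, 6 for group and 3 for number.

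Among the 5 genes in which replicate number took the larger share, Pearson correlations of log2 CPM over 18 libraries ran from 0.69 between Lrrtm3 and Lrrtm4 to 0.93 between Nlgn2 and Nlgn3. These are a description, since the genes were put together by a shared order over the same libraries, which also share depth and composition. The closest genes among all were Hira (r = 0.99) and Exd2 (r = 0.99) for Nlgn2, and Clcn4 (r = 0.98) and Thsd7b (r = 0.98) for Nlgn3. For Lrrtm2 they were Slc1a1 (r = 0.97), a glutamate transporter of neurons, and Cntn1 (r = 0.97). For Lrrtm3 they were Tgoln2 (r = 0.97) and Slc1a1 (r = 0.97), for Lrrtm4 Bend6 (r = 0.92) and Casd1 (r = 0.91), and for Nlgn1 Zfp418 (r = 0.97) and Tanc2 (r = 0.97).

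The share of ribosomal RNA moved with the same genes. The correlation of log2 CPM with its log2 was -0.78 for Nlgn2, -0.76 for Nlgn3, -0.76 for Lrrtm3, -0.66 for Lrrtm4 and -0.65 for Lrrtm2, and -0.57 for Nrxn2. For LRRTM1 it was -0.22, for Nrxn3 0.37 and for Nlgn1 0.54. With the neuron marker sum the correlations were 0.81 for Nrxn3, 0.67 for Nrxn2 and 0.46 for Nlgn1, and between -0.05 and 0.21 for the other 5. The part of ribosomal RNA, of neuron number and of library preparation in these levels was not tested.

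Over all 9 genes, edgeR's quasi-likelihood test called none in any of the 12 comparisons at an adjusted p under 0.05. It called 0% of all genes in 11 of the comparisons and 0.0139% in Glutamate_vesicles against Control. DESeq2 called LRRTM1 against Control in Glutamate, Glutamate_vesicles, Glutamate_secret and Glutamate_BPC, where it called 1.61%, 3.39%, 3.08% and 1.74% of all genes, and Nrxn3 in Glutamate_secret. For LRRTM1, chosen on these libraries, this is a description. In the other comparisons DESeq2 called none of the 9, beside 0.0139% of genes for Memantine against Glutamate, 0.0208% for Glutamate_vesicles against Glutamate, 0.00695% for Glutamate_BPC against Glutamate and 0% for Glutamate_secret against Glutamate and Memantine against Control. Against Memantine it called 0.576% of genes with Glutamate_vesicles, 1.33% with Glutamate_secret and 0.0903% with Glutamate_BPC. The replicate numbers paired the libraries of Glutamate_vesicles and Control, and with the number as a block edgeR called LRRTM1 there, along with 3.74% of all genes. Without Memantine 3 it called LRRTM1 in Memantine against Glutamate, along with 1.73% of all genes. LRRTM1 was chosen on Control and Glutamate libraries, so these calls too are a description.

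At an unadjusted p under 0.05 with a fold change above 1.5 the counts were small and in 1 direction. Where LRRTM1 is counted against Control or Glutamate libraries, it had been chosen on them, so its part in those counts is a description. In Glutamate against Control LRRTM1 was the only one lower, where 5.97% of all genes were lower. In Memantine against Glutamate LRRTM1 and Nrxn2 were higher, where 4.86% of all genes were higher. Against Control, 3 were lower in Glutamate_vesicles (LRRTM1, Nrxn3 and Nlgn1, background 7.59%), 3 in Glutamate_secret (LRRTM1, Nrxn2 and Nrxn3, 7.58%) and 4 in Glutamate_BPC (these and Nlgn1, 7.4%). Single libraries moved these counts. In Glutamate against Control it was 2 without Control 1, with Nrxn2 added, or without Control 3, with Nrxn3 added. In Memantine against Glutamate it was 1, LRRTM1, without Glutamate 1, Glutamate 3, Memantine 1 or Memantine 2, and in Glutamate_BPC against Control it was 2 without Control 1, Glutamate_BPC 2 or Glutamate_BPC 3.

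Against Memantine, LRRTM1 and Nrxn3 were lower in Glutamate_vesicles (background 5.94%), LRRTM1, Nrxn2 and Nrxn3 in Glutamate_secret (7.51%) and LRRTM1 and Nrxn2 in Glutamate_BPC (7.21%). None met it in the preparations against Glutamate, where 1.08%, 0.674% and 1.06% of all genes did in either direction, or in Memantine against Control, where 1.12% did. Group ranges overlapped for all 9 in the last of these and in the 3 comparisons with Memantine, where 2.35%, 5.29%, 4.58% and 5.08% of all genes did not overlap. Comparisons with the same reference share its libraries. Against Memantine the count was 1 without Memantine 1, Glutamate_vesicles 1 or Glutamate_vesicles 3 in the first comparison, without Memantine 2 in the second and without Memantine 1, Memantine 2 or Glutamate_BPC 3 in the last. Nlgn2 alone met the criterion in Glutamate_secret against Glutamate without Glutamate_secret 2, and LRRTM1, Lrrtm2 and Lrrtm4 met it in Memantine against Control without Memantine 2.

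The median log2 fold change of the 9 genes was -0.87 in Glutamate against Control, beside 0.08 over all genes, and 0.59 in Memantine against Glutamate, beside -0.02. Against Glutamate, Glutamate_vesicles had 0.06, Glutamate_secret -0.29 and Glutamate_BPC -0.63, beside -0.01, -0.01 and -0.05 over all genes. Against Control the medians were -0.71, -1.19 and -1.73, beside 0.03, 0.06 and -0.06. Against Memantine they were -0.94, -1.08 and -1.25, beside -0.06, -0.01 and -0.10. The 12 neuron markers had medians of -1.36 in Glutamate against Control and 1.38 in Memantine against Glutamate. Their medians for the 3 preparations were -1.66, -1.54 and -1.53 against Control and -1.33, -1.55 and -1.27 against Memantine, so that in these 8 comparisons they had the sign of the 9 genes, with a larger size in all but Glutamate_BPC against Control. Against Glutamate they were -0.23, -0.05 and -0.16.

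Relative to the sum of the neuron markers the direction of the mean turned for most of the 9 genes. Abundant markers weigh most in this sum, and the markers did not fall alike. From Control to Glutamate, mean CPM went from 1268 to 385 for Stmn2 and from 703 to 174 for Tubb3. It went from 82.2 to 48.3 for Rbfox3 and from 52.8 to 50.4 for Map2. Single markers were not used as the scale, so the turn holds for the sum only. From Control to Glutamate the mean CPM was lower for 8 of the 9 and higher for Nlgn3, while the mean per 1000 CPM of neuron markers was lower for LRRTM1 and higher for the other 8. On that scale Nrxn2 went from 74.5 ± 38.2 in Control to 129 ± 57.3 in Glutamate and Nrxn3 from 21.9 ± 16.0 to 32.9 ± 8.93 (SD, n = 3). Lrrtm3 went from 2.74 ± 0.691 to 8.59 ± 6.44 and Nlgn3 from 7.52 ± 4.94 to 27.2 ± 31.8. The ranges overlapped for all 9, so none of these shifts stood clear of the spread.

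In Memantine against Glutamate the mean CPM was higher for all 9, and the mean per 1000 CPM of neuron markers was higher for LRRTM1 and lower for the other 8. Against Control, all 9 had a lower mean CPM with each preparation, but relative to the neuron markers 3 were lower in Glutamate_vesicles, 2 in Glutamate_secret and 5 in Glutamate_BPC. LRRTM1 and Nrxn3 were among these in all 3 groups. Against Memantine 9, 8 and 9 had a lower mean CPM, and 0, 1 and 4 a lower mean relative to the markers. These counts are descriptions of group means, with no test. Relative to the markers, ranges did not overlap for Nlgn1 in Memantine against Glutamate and in Glutamate_secret against Memantine. The same held for Lrrtm3 in Glutamate_vesicles and Glutamate_BPC against Control. Against Glutamate it held for Nrxn3 with each preparation, and for Nlgn1 with Glutamate_vesicles and Glutamate_BPC. All other ranges overlapped, and the share over all genes was not computed on this scale.

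**Figure D5:**
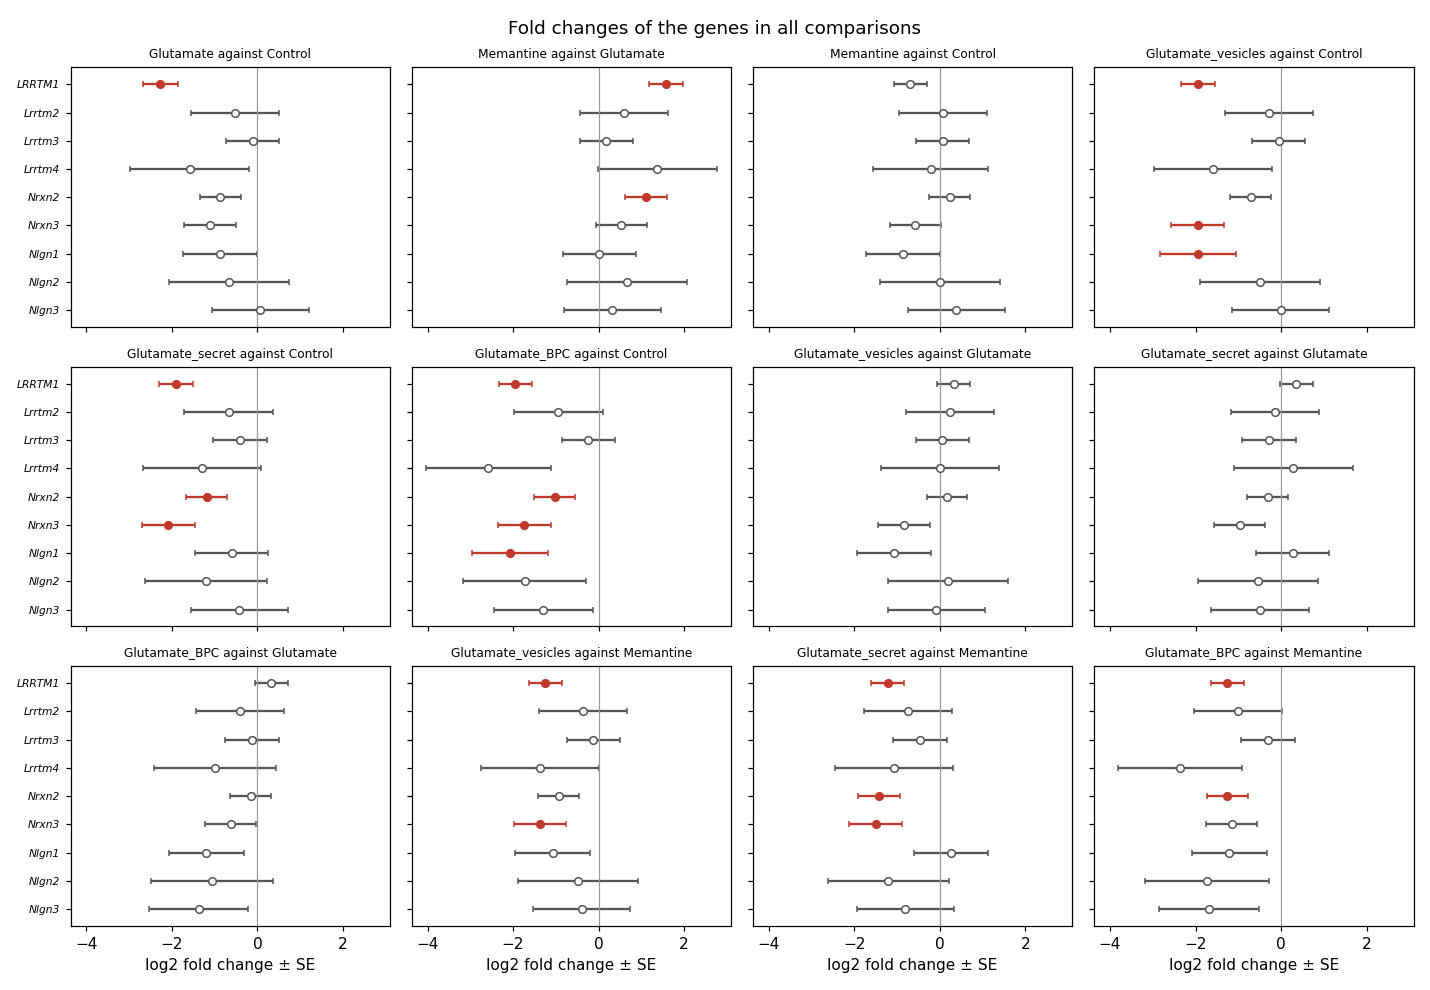
Log2 fold change with its SE (horizontal axis, the same in all panels) of the 9 genes in 12 comparisons of 3 against 3 libraries. Filled red points have an unadjusted p under 0.05 and a fold change above 1.5 in edgeR, and open grey points do not. LRRTM1 has short bars and lies at -2.27 in Glutamate against Control and at 1.57 in Memantine against Glutamate, and no point is red in the preparations against Glutamate. The red points of LRRTM1 against Control or Glutamate are a description, since it was chosen on those libraries.

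A list of other binding partners of neurexins and neuroligins held 24 genes, all tested, such as cerebellins, neurexophilins, calsyntenin 3, latrophilin 1 and MDGA proteins. None passed the adjusted threshold of edgeR. In Glutamate against Control 5 of the 24 were lower at an unadjusted p under 0.05 with a fold above 1.5, and the median log2 fold change was -0.87, beside 0.08 over all genes. In Memantine against Glutamate 4 were higher, with a median of 0.83 beside -0.02. In Glutamate_vesicles against Control 4 were lower and 1 higher, with a median of -0.60 beside 0.03. By the same criterion 5.97% of all genes were lower in the first comparison and 4.86% higher in the second. In the third 7.59% of all genes were lower and 3.97% higher.

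Cbln2 encodes a secreted protein that bridges neurexins to postsynaptic receptors. It was 11.4 ± 1.59 CPM in Control, 3.16 ± 0.297 CPM in Glutamate, 8.79 ± 6.05 CPM in Memantine and 3.18 ± 1.05 CPM in Glutamate_vesicles (SD, n = 3). The log2 fold change of Glutamate against Control was -1.84 (SE 0.57, unadjusted p = 0.00542, adjusted p = 0.329, edgeR). Clstn3, a calsyntenin of the postsynaptic membrane, was 58.5 ± 38.6 CPM in Control and 10.1 ± 8.44 CPM in Glutamate, with a log2 difference of -2.53 (SE 1.03, adjusted p = 0.498, edgeR). Nxph4, a neurexin ligand, was 1.18 ± 0.227 CPM in Control, 0.396 ± 0.108 CPM in Glutamate and 1.48 ± 0.704 CPM in Memantine.

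Mdga1, whose product binds neuroligins and keeps neurexins off them, was 15.6 ± 13.6 CPM in Memantine and 3.82 ± 1.61 CPM in Glutamate, with a log2 difference of 2.02 (SE 0.74, adjusted p = 0.660, edgeR). In Glutamate_vesicles, Adgrl1, the latrophilin 1 gene, was 48.0 ± 19.3 CPM against 135 ± 41.5 CPM in Control, and Cbln1 was 3.07 ± 0.731 CPM against 7.90 ± 0.907 CPM. C1ql2, a secreted partner of neurexins, had the opposite sign, with 1.14 ± 0.368 CPM in Glutamate_vesicles and 0.384 ± 0.103 CPM in Control.

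A list of 38 other synaptic organisers, all tested, gave 7 lower in Glutamate against Control, 9 higher in Memantine against Glutamate, and 9 lower and 1 higher in Glutamate_vesicles against Control, by the same unadjusted criterion and with none past the adjusted threshold of edgeR. The medians were -0.68, 0.77 and -0.86, beside 0.08, -0.02 and 0.03 over all genes. By that criterion 5.97% of all genes were lower in the first comparison and 4.86% higher in the second. In the third 7.59% of all genes were lower and 3.97% higher. Lrfn5, a postsynaptic adhesion gene, was 15.2 ± 6.48 CPM in Control, 2.29 ± 1.92 CPM in Glutamate and 11.9 ± 11.6 CPM in Memantine. Cadm3, a cell adhesion gene of axons, was 103 ± 39.6 CPM in Control and 34.6 ± 4.85 CPM in Glutamate, with a log2 difference of -1.57 (SE 0.45, adjusted p = 0.292, edgeR). Flrt3, a ligand of latrophilins, was 144 ± 212 CPM in Control, an SD larger than the mean, against 22.0 ± 2.12 CPM in Glutamate and 18.7 ± 4.49 CPM in Glutamate_vesicles.

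Tenm2 and Tenm3, the teneurin genes named by the same rule, were 25.9 ± 31.1 CPM and 56.5 ± 64.1 CPM in Memantine against 5.25 ± 2.49 CPM and 16.2 ± 11.3 CPM in Glutamate. In Glutamate_vesicles against Control the list also named Ntng2, with 2.02 ± 1.76 CPM against 10.9 ± 7.44 CPM, and Il1rap, with 7.55 ± 5.36 CPM against 1.38 ± 1.23 CPM. The medians of the neuron markers had the same signs as those of both lists. These median log2 fold changes were -1.36, 1.38 and -1.66, with 6 of 12 lower, 5 higher and 7 lower by the same criterion. Their part in the values of the lists was not tested.

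With Control 1 and Memantine 3 both left out, a setting chosen after seeing the data, genes were counted by the same unadjusted criterion. By it, 6 of the 24 partners were lower in Glutamate against Control and 9 were higher in Memantine against Glutamate. Of all 14648 genes tested in this setting, 1116 were lower in the first comparison and 1388 higher in the second. Of the 9 partners, 3 were past the adjusted threshold of edgeR, where 2.61% of all genes were called. Of the 38 other organisers 11 were lower and 18 higher, with 3 and 6 past that threshold, where 1.43% and 2.61% of all genes were called. In Glutamate_vesicles against Control 8 of the 24 and 13 of the 38 were lower and none higher. Of all genes 1108 were lower and 403 higher there. Past the adjusted threshold were 0 of the 24 and 1 of the 38, beside 1.3% of all genes. The neuron markers had the same directions in this setting. Of these 12 genes 6 were lower in Glutamate against Control, 8 higher in Memantine against Glutamate and 8 lower in Glutamate_vesicles against Control, with 1, 2 and 1 past the threshold. These are 8.33%, 16.7% and 8.33% of the markers, against 7.89%, 15.8% and 2.63% of the organisers and 0%, 12.5% and 0% of the partners.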

How the data were processed

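Expected counts (estimated read counts per gene that need not be whole) were deposited by the authors for 18 libraries, unscaled between libraries. Per the study's methods, reads were trimmed with Trimmomatic and Cutadapt, quantified with Salmon against Ensembl rat transcripts and summed to genes with tximport. The labels name STAR, Salmon and the build rn6, and versions are not given in them. The sources differ on platform and library kit. Counts were rounded, filtered with filterByExpr (minimum count 10, minimum total 15), TMM-scaled and tested with edgeR 4.0.16 in R 4.3.3 (glmQLFit and glmQLFTest, two-sided, 1 mean per group over all 18 libraries, Benjamini-Hochberg over 14398 genes, threshold 0.05). The study used edgeR's likelihood-ratio test, which, with DESeq2 1.42.0, served as an alternative. Log2 CPM used a prior count of 2. The filter on low counts kept all 9 genes.

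The genes and the lists were chosen with earlier results of these data known. All 9 genes are named. From the lists, up to 3 genes with the highest and 3 with the lowest log2 fold change at an unadjusted p under 0.05 are named in Glutamate against Control, Memantine against Glutamate and Glutamate_vesicles against Control, with all alpha-catenin hosts. Likeness was Pearson's r over 18 libraries among genes whose log2 CPM averaged 1 or more, with 5 genes named for LRRTM1 and 2 for each other gene, except a gene that is not reported here. Marker lists are given as sums. The edgeR script was tested on simulated data. No libraries were duplicates (highest correlation between any pair 0.986).

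Groups share replicate numbers. Deviations from the group means correlated above 0.1 in all 3 pairs for 7 of the 12 comparisons (r from 0.16 to 0.89): Memantine, Glutamate_secret and Glutamate_BPC with Glutamate, Glutamate_vesicles with Control, and each preparation with Memantine. The numbers were taken to pair the libraries there, from the data and not from the labels. This rule was applied to each comparison by itself, and Control was paired with Glutamate_vesicles only. The main test used no block, so its p-values leave the pairing out.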

Additional observations from a re-analysis of the deposited data

How the results depend on the processing

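The number of the 9 genes called by edgeR was recomputed 165 times and remained at 0 in 137. Against Control it became 1 in Glutamate, Glutamate_vesicles, Glutamate_secret and Glutamate_BPC with edgeR's likelihood-ratio test, with the replicate number as a block (replicate block) and with the log2 share of ribosomal RNA as a covariate. It was also 1 with DESeq2 in 3 of them and 2 in Glutamate_secret. The gene was LRRTM1, which had been chosen on these libraries, and the second gene in DESeq2 was Nrxn3. The block changed no other call. Leaving out single libraries gave 0 to 1 called genes in Memantine against Glutamate, in Glutamate_vesicles against Memantine and in Glutamate_BPC against Memantine, and 0 to 2 in Glutamate_secret against Memantine, each highest value without Memantine 3. With Control 1 and Memantine 3 both left out, chosen after seeing the data, the count was 1 in Memantine against Glutamate and, against Control, 1 in Glutamate, Glutamate_vesicles and Glutamate_BPC and 2 in Glutamate_secret, and against Memantine 2, 3 and 2 in Glutamate_vesicles, Glutamate_secret and Glutamate_BPC. The causes were not tested.

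The fold changes of LRRTM1 kept their sign in all 165 recomputations. Over the 9 genes the sign changed in 148 of 1480, with adjusted p over 0.05 in both settings each time, most often in Nlgn3 (31), Lrrtm3 (29) and Nlgn2 (26). Lrrtm4 was filtered out in some settings. With 3 libraries a group and SEs of 1.03 to 1.41 for Lrrtm2, Lrrtm4, Nlgn2 and Nlgn3 in Glutamate against Control, differences near 2-fold in these genes were not detectable.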
